A study of Drosophila melanogaster with 12 samples.

Results

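The genes fit, sxe2, Cyp4d21 and dsx, grouped here as sex-biased genes of the head fat body, were followed across the 4 genotypes of a whole-female array study of juvenile hormone. They were taken as every probe set of the array annotated to one of these symbols alone, which gave 4 of the 11982 genes that have a probe set of their own, through 5 probe sets. Fit, sxe2 and Cyp4d21 were each read by 1 probe set and dsx by 2, and all 5 passed the filter on low values.

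CAKO_ovoD females lacked the corpora allata, the glands that make juvenile hormone, and also carried the dominant ovoD1 allele, which stops egg chambers early and leaves females sterile. The ovoD females carried ovoD1 with intact corpora allata and were the control for CAKO_ovoD. CAKO females were fertile and lost the corpora allata because Aug21-Gal4 (carried with UAS-GFP) drove UAS-NIPP1, an inhibitor of a protein phosphatase, in the gland. Wildtype females were the control for CAKO. Their background is given as wDah/w1118, but as wDah, like that of CAKO, in the study's legend for the array results. Each of the 12 arrays (3 per genotype) took RNA of 25 pooled whole females, whose age is given as 15 days in one label and 14 days in another. The methods describe a knockout whose efficiency varied between females, and the sources differ on whether the fertile and the sterile pair shared a genetic background, so background and ovoD1 cannot be told apart in comparisons of sterile with fertile females. No arrays are labelled as females with the driver or UAS-NIPP1 alone. Gland loss and the transgenes themselves therefore cannot be told apart in the knockout comparisons.

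The adult fat body of Drosophila is the liver- and adipose-like tissue of the fly, and part of it surrounds the brain in the head. Its cells know their own sex: Sex-lethal and transformer direct sex-specific splicing of doublesex (dsx) transcripts, and the male or female DSX protein then turns genes on or off. Fit (female-specific independent of transformer) encodes a small secreted peptide that is known as a satiety signal for dietary protein in females. Sxe2 belongs to the lipase family and is known for male-biased expression in the head fat body, and Cyp4d21, also called sex-specific enzyme 1, is a cytochrome P450 with the same male bias and a link to courtship. No males and no dissected heads were measured, so neither the sex bias nor the tissue of these transcripts could be checked here. The 10 fat body markers that were looked up were above the floor of the value scale in every genotype.

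Values are log2 expression values, so that 1 unit is a doubling. The lowest value that the normalization gives, called the floor, was 2.13. A difference was called where the adjusted p of the limma fit over 13871 probe sets was below 0.05 and the size at least 1.5-fold. The arrays had medians between 2.86 and 2.92, and 46.6% to 47.5% of their probe sets lay within 0.2 of the floor. Juvenile hormone acid methyltransferase, jhamt, which makes the hormone in the gland, was lower on all knockout arrays (2.88-fold in CAKO against wildtype, adjusted p = 0.00213, and 5.08-fold in CAKO_ovoD against ovoD, adjusted p = 4.87e-04). The germ line gene ovo was 16.7-fold lower in ovoD against wildtype and 16.2-fold lower in CAKO_ovoD against CAKO.

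**Figure D1:**
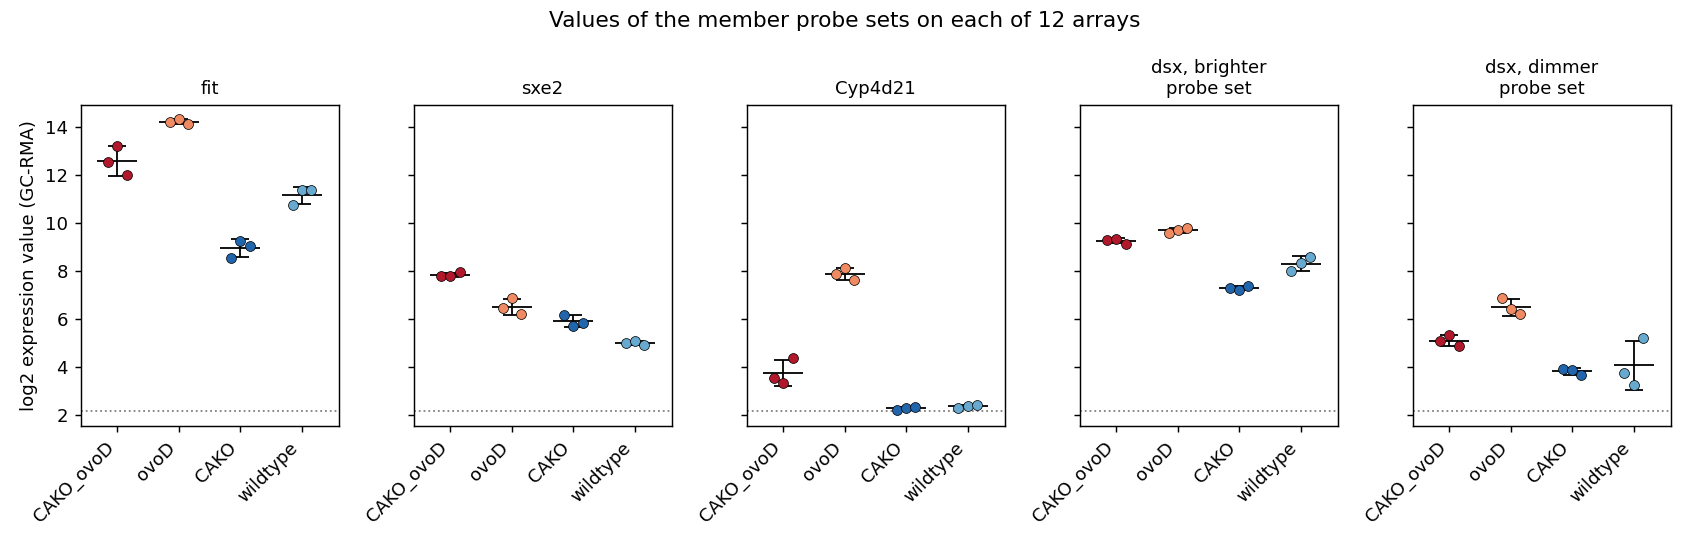
Log2 GC-RMA expression value (vertical axis) of fit, sxe2, Cyp4d21 and the 2 dsx probe sets in the 4 genotypes (horizontal axis), 1 point per array, with the mean and SD of 3 arrays as black lines and the floor of 2.13 as a dotted line. Fit is highest in ovoD and lowest in CAKO, sxe2 is highest in CAKO_ovoD and lowest in wildtype, and Cyp4d21 lies near the floor on all 6 fertile arrays.

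These genes differed in direction between knockout females and their controls. Whether each differed in fertile females, in sterile females or in both was asked by comparing CAKO with wildtype and CAKO_ovoD with ovoD. Fit was lower and sxe2 higher after knockout in both pairs. Cyp4d21 was lower in the sterile pair and could not be measured in the fertile pair, and dsx was called lower by 1 of its probe sets, in the fertile pair. In CAKO against wildtype 3 of the 5 probe sets were called, 1 higher and 2 lower, where 5.23% of all probe sets tested were called (3.27% higher and 1.97% lower). In CAKO_ovoD against ovoD 3 of the 5 were called, 1 higher and 2 lower, where 3.83% of all were called (1.92% higher and 1.91% lower). Arrays of the groups compared did not overlap for 3 of the 5 probe sets in CAKO against wildtype (28.4% of all) and for 5 of the 5 in CAKO_ovoD against ovoD (26.6% of all). The study's own lists of knockout-responsive genes, drawn from these same arrays, already hold fit, sxe2, Cyp4d21 and dsx. The counts of calls and of groups without overlap are therefore not a test of the group. The median log2 fold change of the 5 was -0.25 with fertile and -1.40 with sterile females, and over all probe sets tested it was 0.00 in each comparison. Both medians of the 5 are the values of the dimmer dsx probe set, which was called in neither pair. As the genes differ in direction, these medians describe no shared shift.

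Fit, the female satiety peptide, reached log2 values of 8.53, 9.24 and 9.05 on the 3 CAKO arrays, against 10.75, 11.36 and 11.36 on the wildtype arrays. In sterile females it reached 12.54, 13.23 and 11.998 in CAKO_ovoD and 14.21, 14.33 and 14.14 in ovoD. Every knockout array lay below every array of its control in both pairs, which holds for 14.6% of all probe sets in the fertile pair and 12.5% in the sterile pair. The fall was 4.65-fold in CAKO (log2 fold change -2.22, SE 0.31, adjusted p = 0.00173) and 3.10-fold in CAKO_ovoD (-1.63, SE 0.31, adjusted p = 0.0116). The call in sterile females was lost with the methods' t-test after adjustment (adjusted p = 0.124), in a fit of that pair alone (adjusted p = 0.0605) and with arrays weighted by their quality (-1.55, adjusted p = 0.0542). The knockout effect on fit in sterile minus that in fertile females was 0.58 on the log2 scale (95% interval -0.42 to 1.58, adjusted p = 0.577), so a difference in size between the pairs was not shown. Fit was 1 of 69 probe sets (0.497% of those tested) called lower in both pairs.

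Sxe2, the lipase-family gene, went the other way. Its log2 values were 6.18, 5.71 and 5.82 in CAKO, against 4.98, 5.09 and 4.91 in wildtype, and 7.77, 7.79 and 7.94 in CAKO_ovoD, against 6.43, 6.88 and 6.21 in ovoD. The knockout arrays were above all arrays of their controls in both pairs, as they were for 13.7% of all probe sets with fertile and 14.1% with sterile females. The rise was 1.88-fold in CAKO (0.91, SE 0.17, adjusted p = 0.00862) and 2.51-fold in CAKO_ovoD (1.33, SE 0.17, adjusted p = 0.00203). Both calls were lost with the methods' test after adjustment (adjusted p = 0.0649 and 0.0675), which takes its spread from 1 pair and 1 probe set at a time, and the fertile one was lost at a 2-fold threshold. The effects in the 2 pairs differed by 0.42 (95% interval -0.14 to 0.98, adjusted p = 0.43). Sxe2 was 1 of 111 probe sets (0.8%) called higher in both pairs.

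Cyp4d21, the P450 gene, was measurable only in sterile females. It had log2 values of 3.55, 3.31 and 4.35 in CAKO_ovoD, against 7.86, 8.14 and 7.63 in ovoD, and the groups lay 3.28 apart. In fertile females it had 2.19, 2.30 and 2.31 in CAKO, against 2.30, 2.35 and 2.39 in wildtype, all within 0.26 of the floor. In the sterile pair it ranked at place 14 of 13871 by p (-4.14, SE 0.24, adjusted p = 3.35e-05), and its 17.6-fold fall was the largest among the 4 genes. The fertile difference of -0.08 (adjusted p = 1) bounds nothing, because a transcript at the floor has no room to fall. The difference of -4.06 between the pairs (adjusted p = 4.34e-04) therefore sets a measured fall beside one that could not be measured.

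Dsx, the transcription factor gene at the end of the sex determination cascade, was read by 2 probe sets that were not called alike. Its RefSeq gene model has 7 transcripts, and which of them each probe set reads is not given in the sources used here. The brighter probe set gave 7.29, 7.19 and 7.37 in CAKO, against 7.99, 8.32 and 8.60 in wildtype, with no overlap, and was called 2.02-fold lower (-1.02, SE 0.14, adjusted p = 0.00132), a call that was lost with the methods' test after adjustment (adjusted p = 0.0738). In sterile females it gave 9.31, 9.33 and 9.14 in CAKO_ovoD, against 9.60, 9.69 and 9.78 in ovoD. These arrays did not overlap either, but the difference of -0.43 (95% interval -0.74 to -0.13, adjusted p = 0.0786) fell short of both thresholds.

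The dimmer dsx probe set was called in neither pair. It gave 3.92, 3.85 and 3.66 in CAKO, against 3.73, 3.25 and 5.22 in wildtype (-0.25, 95% interval -1.24 to 0.73, adjusted p = 0.973). Wildtype replicate 3 stood far above the other wildtype arrays, and without it the difference was 0.32 (adjusted p = 0.567), with the sign turned. In sterile females it gave 5.06, 5.33 and 4.86 in CAKO_ovoD, against 6.87, 6.40 and 6.19 in ovoD, with no overlap, and a difference of -1.40 (95% interval -2.39 to -0.42, adjusted p = 0.0772). The spread of that array enters the shared error, and without wildtype replicate 3 the sterile difference was called (adjusted p = 0.0054), as it was without wildtype replicate 2 (adjusted p = 0.0464) and in the fit of the sterile pair alone (adjusted p = 0.0379). Between the pairs the knockout effect differed by 0.58 for the brighter probe set (95% interval 0.15 to 1.02, adjusted p = 0.133) and by -1.15 for the dimmer one (95% interval -2.54 to 0.24, adjusted p = 0.378). Of the 5 probe sets only that of Cyp4d21 was called in this test, against 3.04% of all.

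**Figure D2:**
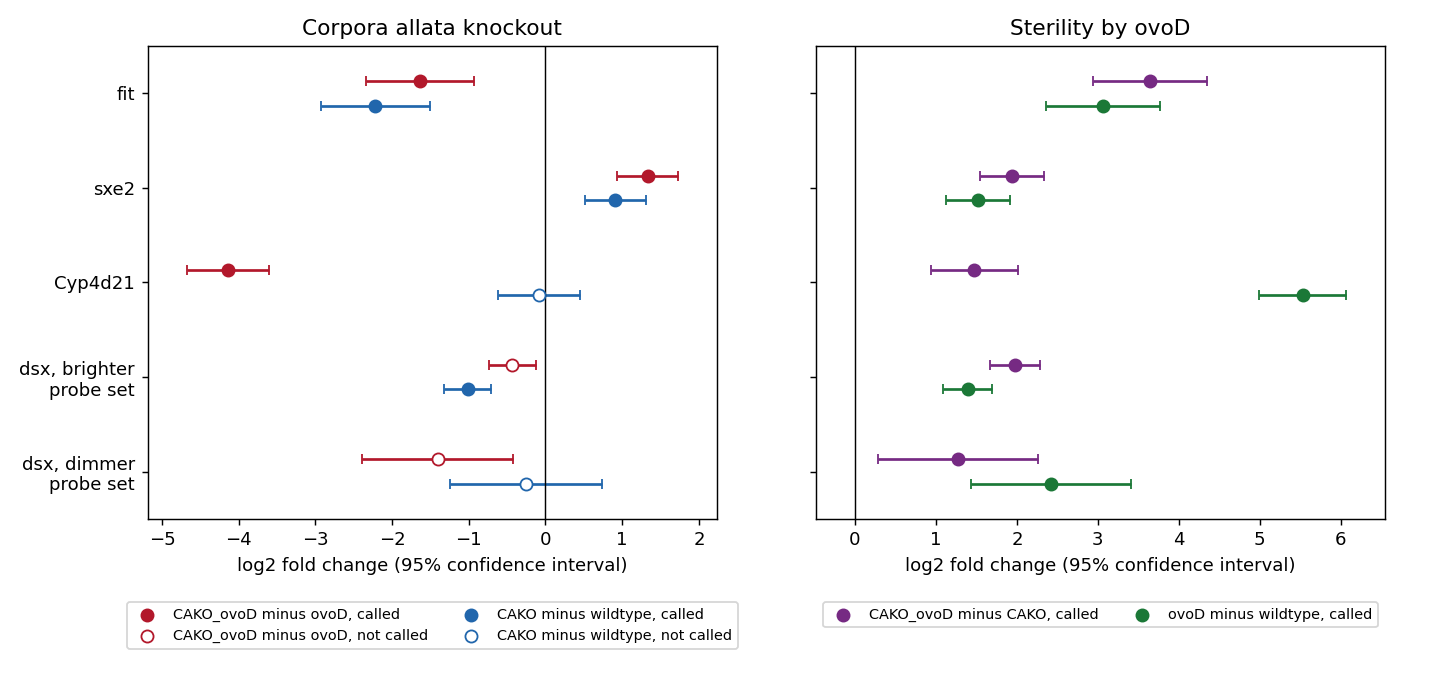
Log2 fold change (horizontal axis) with its 95% confidence interval for each probe set (vertical axis), for corpora allata knockout on the left and for ovoD sterility on the right, where filled points were called and open points were not. Fit lies below 0 and sxe2 above 0 in both knockout comparisons, and all 10 values of the sterility comparisons lie above 0.

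Sterility went with higher levels of all 4 genes, whether the corpora allata were present or not. All 5 probe sets were called higher in ovoD against wildtype, where 21.9% of all probe sets were called higher (45.7% in either direction). All 5 were also called higher in CAKO_ovoD against CAKO, where 22% of all were (44.1% in either direction). Their median log2 fold changes were 2.42 and 1.93. Of all probe sets tested, 19.6% were called higher in both.

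Cyp4d21 was higher in ovoD than in wildtype (5.53, SE 0.24, adjusted p = 4.44e-08), but the wildtype arrays lay within 0.26 of the floor, so the size of this difference was not measured. In CAKO_ovoD it was at least 2.64-fold higher than in CAKO, where it lay at the floor (adjusted p = 3.66e-04). Fit was 8.37-fold higher in ovoD than in wildtype (3.07, adjusted p = 1.44e-05) and 12.5-fold higher in CAKO_ovoD than in CAKO (3.65, adjusted p = 4.64e-06). Each sterile array of these genes was above each fertile array it was compared with, as it was for 31.7% of all probe sets in ovoD against wildtype and 33.2% in CAKO_ovoD against CAKO.

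Sxe2 was 2.86-fold higher in ovoD than in wildtype (1.52, adjusted p = 3.44e-05) and 3.82-fold higher in CAKO_ovoD than in CAKO (1.93, adjusted p = 6.58e-06). Dsx was 2.62-fold higher in ovoD than in wildtype and 3.93-fold higher in CAKO_ovoD than in CAKO by its brighter probe set (1.39 and 1.97, adjusted p = 1.03e-05 and 1.06e-06). By its dimmer probe set it was 5.35-fold and 2.41-fold higher (2.42 and 1.27, adjusted p = 7.74e-04 and 0.0295). The last of these had the highest adjusted p of the 10, and the call was lost without CAKO_ovoD replicate 1 or 2 and without any one of the CAKO arrays (1.15 to 1.33, adjusted p = 0.0565 to 0.0875).

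The comparisons of sterile with fertile females depend on how arrays are put on 1 scale, since a sterile female has little germ line RNA. The 9 germ line markers averaged 4.36 to 4.71 per array in CAKO_ovoD and 4.64 to 4.96 in ovoD, against 8.99 to 9.08 in CAKO and 9.16 to 9.29 in wildtype. Centring the arrays on 12 muscle and photoreceptor genes took 0.76 off each log2 fold change in ovoD against wildtype and 0.87 off each in CAKO_ovoD against CAKO. All 10 differences stayed above 0 on that scale, the lowest at 0.40 for the dimmer dsx probe set (adjusted p = 0.292, no longer called) and 0.60 for Cyp4d21 in CAKO_ovoD against CAKO. In whole females, fewer cells of a type and less RNA per cell cannot be told apart.

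The order of the 4 genotypes was compared gene by gene. Fit averaged 12.59 ± 0.62 in CAKO_ovoD, 14.22 ± 0.10 in ovoD, 8.94 ± 0.37 in CAKO and 11.16 ± 0.35 in wildtype (SD, n = 3, as for each mean here). Its order by level was ovoD, CAKO_ovoD, wildtype and CAKO, and each step was called. The steps that link a sterile with a fertile genotype, CAKO_ovoD against wildtype and CAKO against ovoD, come from comparisons in which 45.3% and 43.3% of all probe sets were called. Sxe2 averaged 7.84 ± 0.09 in CAKO_ovoD, 6.51 ± 0.34 in ovoD, 5.90 ± 0.24 in CAKO and 4.99 ± 0.09 in wildtype, which is also its order by level, with each step called. The step between CAKO and ovoD was the narrowest (-0.60, adjusted p = 0.0132), and with arrays centred on muscle and photoreceptor genes it turned to 0.01 (adjusted p = 0.95). On that scale fit kept its order, but CAKO_ovoD and wildtype were not told apart (0.42, adjusted p = 0.153).

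Cyp4d21 averaged 3.74 ± 0.54 in CAKO_ovoD, 7.88 ± 0.25 in ovoD, 2.26 ± 0.07 in CAKO and 2.35 ± 0.05 in wildtype. It had the order of fit, but CAKO and wildtype were not told apart. The brighter dsx probe set averaged 9.26 ± 0.11 in CAKO_ovoD, 9.69 ± 0.09 in ovoD, 7.28 ± 0.09 in CAKO and 8.30 ± 0.30 in wildtype, again in the order of fit, with CAKO_ovoD and ovoD not told apart. Centred on muscle and photoreceptor genes, CAKO_ovoD and wildtype changed places for this probe set (-0.06, adjusted p = 0.725) and were no longer told apart for Cyp4d21 (0.37, adjusted p = 0.0897). The dimmer one, at 5.08 ± 0.23 in CAKO_ovoD, 6.48 ± 0.35 in ovoD, 3.81 ± 0.14 in CAKO and 4.07 ± 1.03 in wildtype, kept that order with no neighbours in it told apart. Of the 4 genes, sxe2 alone had its lowest mean in wildtype, and it alone was called higher in knockout females.

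Genes with the most similar course over the 4 genotypes were found by the root mean square difference of centred genotype means, among 9967 other genes, as a description over 4 points. Nearest to fit were DptB (0.32), which encodes the antimicrobial peptide Diptericin B, Acbp6 (0.35), an acyl-CoA binding protein gene, CG6296 (0.42) and CG17239 (0.44). DptB averaged 9.57 in CAKO_ovoD, 11.78 in ovoD, 5.64 in CAKO and 8.04 in wildtype. Nearest to sxe2 were CG9993 (0.09), the retinol dehydrogenase-related Rdh1 (0.10), CG17107 (0.12) and CG3270 (0.14).

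Nearest to Cyp4d21 were CG13403 (0.27), CG9616 (0.28), CG13078 (0.32) and CG5157 (0.71), all near the floor in fertile females. CG13078, for example, averaged 4.33 in CAKO_ovoD, 8.03 in ovoD, 2.13 in CAKO and 2.14 in wildtype. Nearest to dsx were CG10910 (0.06), CG8773 (0.07), CG4259 (0.07) and eloF (0.13), the last a female-biased fatty acid elongase used for cuticular hydrocarbons. EloF averaged 12.76 in CAKO_ovoD, 13.11 in ovoD, 10.96 in CAKO and 12.05 in wildtype, against 9.26, 9.69, 7.28 and 8.30 for the brighter dsx probe set, a likeness of differences and not of levels.

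**Figure D3:**
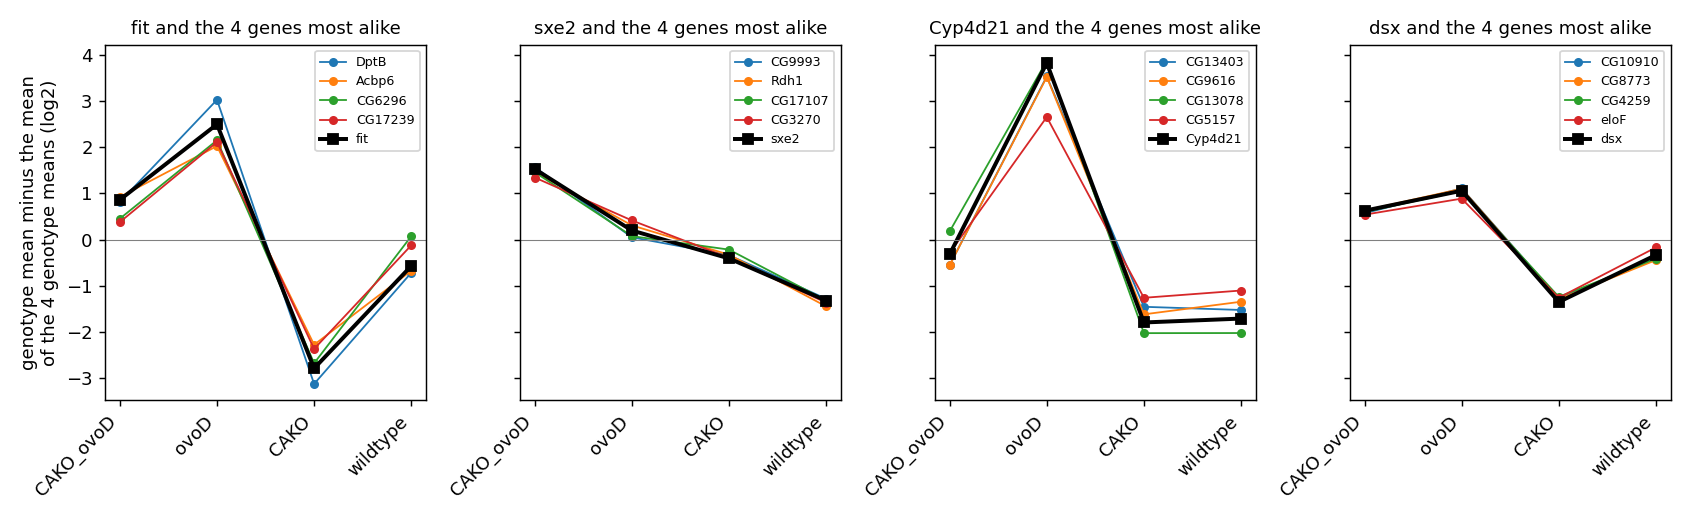
Genotype mean minus the mean of the 4 genotype means (vertical axis, log2) for each gene, in black, and the 4 genes nearest to it, in colour, across the 4 genotypes (horizontal axis). Fit, Cyp4d21 and dsx peak in ovoD, and sxe2 peaks in CAKO_ovoD and is lowest in wildtype.

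The genes that act above or beside dsx in sex determination were not called after knockout. Of 14 listed genes 12 were matched and 11 tested, and 0 were called in CAKO against wildtype (log2 fold changes -0.32 to 0.05) or in CAKO_ovoD against ovoD (-0.39 to 0.35). Over all probe sets 5.23% and 3.83% were called, so 0 of 11 does not set these genes apart. Small differences were found below 1.5-fold, with lowest adjusted p of 0.00489 and 0.00706. None of the 3 other genes of the dsx family (the DMRT family of DM-domain factors) passed the filter on low values.

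In ovoD against wildtype 5 of these 11 were lower, where 23.7% of all probe sets were called lower, and the same 5 were lower in CAKO_ovoD against CAKO, where 22.1% were. They were retn (-3.35), a DNA-binding gene used in neurons and in the ovary, ix (-1.42), whose protein is a partner of DSX, nito (-1.36), fl(2)d (-0.98) and tra2 (-0.87), which help in splicing. Fru, the gene of the neuronal branch, was higher by 1 of its 7 probe sets (1.03), and Sxl, the master switch, was higher by 2 probe sets (1.11 and 0.62) and not called by its brightest (-0.41). Dsx was higher in the same comparison. Centring on muscle and photoreceptor genes takes 0.76 off each log2 fold change there. On that scale the smaller Sxl rise turns to a fall, and those of 1.11 (Sxl) and 1.03 (fru) stay under 1.5-fold. The knockout effect differed between the pairs for nito (0.59, adjusted p = 0.00432) and, at under 1.5-fold, for tra (0.35, adjusted p = 0.0159).

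Other sex-biased genes of fat body, oenocytes and abdomen, 8 of 9 listed, also split by direction. Takeout (to) was listed but not matched. The study lists it, from these same arrays, as lower in CAKO_ovoD than in ovoD, the direction of Cyp4d21. Its PCR found no difference in takeout between CAKO and wildtype. Obp99b, a male-biased odorant-binding protein gene, was higher in CAKO than in wildtype (4.91, adjusted p = 2.49e-04) and in CAKO_ovoD than in ovoD (3.24, adjusted p = 0.00347), the direction of sxe2. The female-specific yolk protein genes Yp2 (-0.68) and Yp3 (-0.67) and eloF (-1.09) were lower in CAKO than in wildtype, the direction of fit and dsx, and 0 of the 8 were called lower in CAKO_ovoD. The knockout effect on eloF was smaller in sterile females (0.74, adjusted p = 0.0393). In ovoD against wildtype 6 of 8 were higher and 0 lower, where 21.9% of all probe sets were called higher. In CAKO_ovoD against CAKO 7 of 8 were higher, where 22% of all were. On the muscle and photoreceptor scale the smaller of these rises, those of Yp2, Fad2 and bab1 in ovoD against wildtype, turn to falls.

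Within the Cyp4d subfamily of P450 genes, Cyp4d21 stood with its relatives after ovoD and apart from most of them after knockout. In both sterility comparisons 5 of the 6 genes were higher, where 21.9% and 22% of all probe sets were called higher. In ovoD against wildtype the rises beside that of Cyp4d21 were 1.70 (Cyp4d20), 1.91 (Cyp4d2), 2.85 (Cyp4d1) and 3.34 (Cyp4d8). In CAKO_ovoD against ovoD, Cyp4d21 (-4.14) and Cyp4d1 (-0.65, adjusted p = 0.00499) were called lower and the other 4 were not called. In CAKO against wildtype, Cyp4d2 (0.72) and Cyp4d8 (1.39) were higher. Cyp4d8 was the only other gene of the subfamily called for the difference between the pairs (-1.69, adjusted p = 0.0219). For Cyp4d21 that call sets a measured fall beside one that could not be measured.

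Fit is known to act on feeding through insulin release, and 6 of 8 listed genes of insulin-like peptides and adipokinetic hormone were matched. Ilp3 and Ilp6 were not matched. The study lists Ilp6, from these same arrays, as lower in CAKO than in wildtype, the direction of fit. It also reports a fall of Ilp6 (dilp6) by PCR in fertile knockout females. Ilp5 (1.04) and Akh (1.14), made in brain and gland cells that signal nutrient state, were higher in CAKO than in wildtype, where fit was lower. The study's PCR of Ilp5 (dilp5) reports a fall with knockout in sterile females and not in fertile ones, and names no rise. In CAKO_ovoD against ovoD only AkhR, the adipokinetic hormone receptor of the fat body, was called, lower by 1 of its probe sets (-1.33). Ilp5 (5.24), Akh (3.44), Ilp2 (2.62), AkhR (1.33) and ImpL2 (0.70), which encodes an insulin-binding protein, were higher in ovoD than in wildtype, where fit was higher as well. In that comparison 21.9% of all probe sets were called higher. The muscle and photoreceptor scale takes 0.76 off each value, so the rise of ImpL2 does not remain on it.

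**Figure D4:**
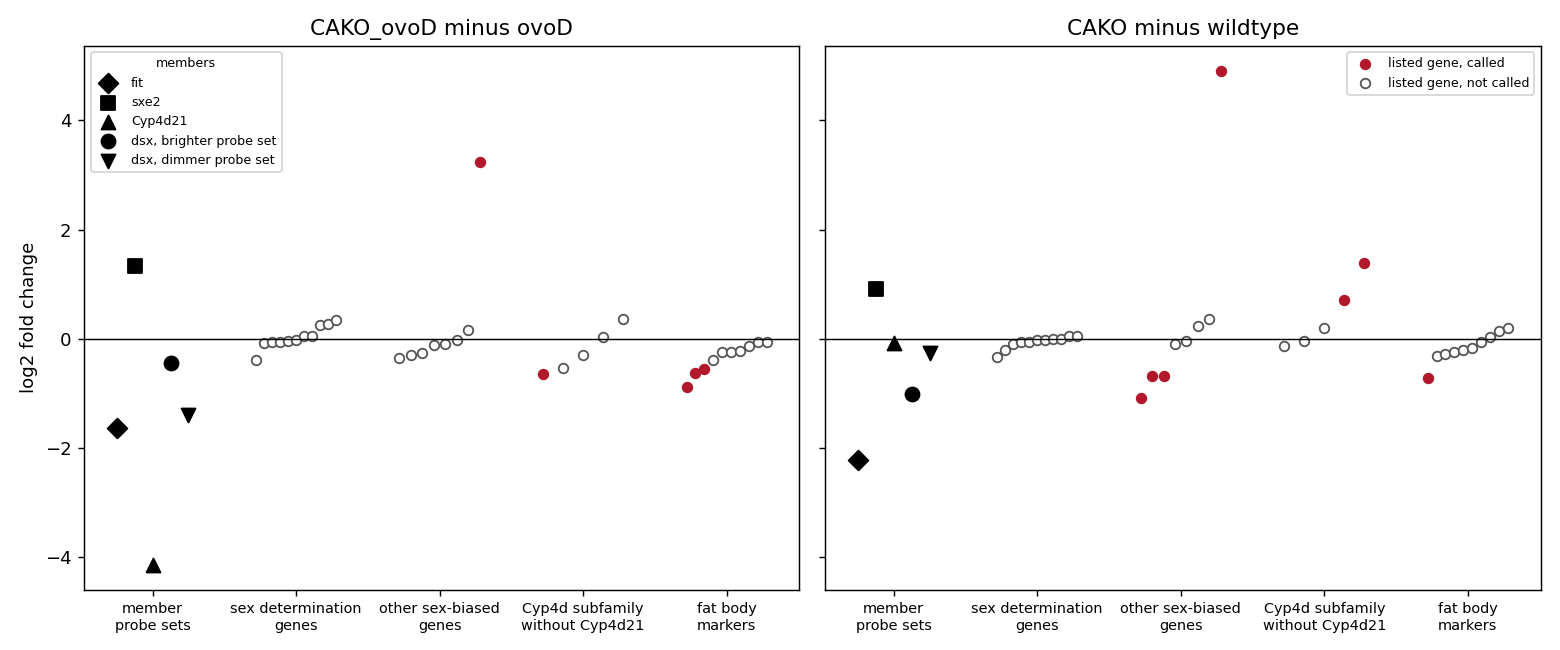
Log2 fold change (vertical axis) of the 5 probe sets, in black, and of listed genes in 4 groups (horizontal axis), in CAKO_ovoD against ovoD on the left and CAKO against wildtype on the right, where filled red points were called and open points were not. The sex determination genes lie between -0.39 and 0.35 in both comparisons, while all 5 probe sets lie outside that range in the sterile pair. There the brighter dsx probe set lies just outside it (-0.43), and neither dsx probe set was called. In the fertile pair Cyp4d21 (-0.08) and the dimmer dsx probe set (-0.25) lie inside it.

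Of 10 general fat body markers, only Lsd-1 (perilipin 1) was called in CAKO against wildtype (-0.71), within a range of -0.71 to 0.20. Lsd-1 (-0.88) and Lsd-2 (-0.62) were called lower in CAKO_ovoD against ovoD, as was AkhR by 1 of its probe sets (-1.33). By the brightest probe set of each gene, the 10 markers lay within -0.88 to -0.05. The mean of the 10 markers per array was 12.29 to 12.44 in CAKO_ovoD, 12.65 to 12.78 in ovoD, 11.81 to 11.84 in CAKO and 11.88 to 12.10 in wildtype. So the markers stood in the same order of genotypes as fit and dsx, and their part in the results was not tested. In ovoD against wildtype they differed by 0.02 to 1.40 (median 0.75, 5 of 10 higher), and in CAKO_ovoD against CAKO by -0.55 to 1.48 (median 0.63, 5 of 10 higher). Over all probe sets 21.9% and 22% were called higher. Centring on muscle and photoreceptor genes takes 0.76 and 0.87 off these values, at least the size of both medians. In ovoD against wildtype 5 of 7 muscle and 3 of 5 photoreceptor markers were higher as well. The 7 muscle markers averaged 11.72 to 12.11 in CAKO_ovoD, 11.46 to 11.51 in ovoD, 10.94 to 11.25 in CAKO and 10.56 to 10.66 in wildtype, in the order of sxe2, which was likewise not tested as a part of its change. Of 10 male reproductive tract genes, 9 lay at the floor in every genotype.

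The neighbours of the 4 genes on the chromosome were also looked up. Within 5 gene models on each side, 27 genes had a probe set of their own, and 23 of their 29 probe sets were tested. In CAKO against wildtype 1 of the 23 was called (Elovl7, near dsx, 0.96), where 5.23% of all were. In CAKO_ovoD against ovoD 2 were called (Slob, near Cyp4d21, 1.00, and kipf, near dsx, -0.85), where 3.83% of all were, and 0 neighbours of fit or sxe2 were called. In ovoD against wildtype 8 were higher and 6 lower, where 45.7% of all were called. Fit overlaps the antisense gene asRNA:CR45046 and CG31465 in the RefSeq gene models, sxe2 overlaps Mhcl and dsx overlaps lds. Part of a signal may come from the overlapping gene where probes lie in shared sequence, which was not tested. Mhcl was not called in the fertile (0.18) or sterile (0.22) knockout pair and was called higher in both sterility comparisons (0.61 and 0.65). Lds was not called after knockout (0.02 and 0.14) and was lower in both sterility comparisons (-3.83 and -3.71). CG31465 did not pass the filter on low values.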

How the data were processed

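Affymetrix Drosophila 2.0 arrays measured RNA of pooled whole females, described as independent biological replicates. The authors adjusted and quantile normalized the arrays with GC-RMA and deposited log2 values, used as they stand. With 3 arrays per genotype, their number limits the precision (the smallest exact permutation p is 0.1). The 5081 probe sets in the lowest 25% of values in all 4 genotypes were left out and 13871 of 18952 kept.

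R 4.3.3 with limma 3.58.1 (lmFit, then eBayes with a trend) fitted 4 genotypes over 12 arrays with 8 residual degrees of freedom. Tests were two-sided, adjusted by Benjamini-Hochberg over all kept probe sets in each contrast, and checked on simulated data. Log2 fold changes, SE and 95% intervals come from this fit. A genotype was taken as at the floor if no array exceeded it by over 0.2, and folds against it are bounds. The genes named are the 4 members, jhamt, ovo, the 4 genes nearest in course to each, and called members of the lists. Listed genes are called if any probe set is, and values come from the brightest unless stated. Gene names and neighbours come from the RefSeq gene table for Release 6. The members and lists were chosen with earlier results of these data known. Replicate numbers did not pair arrays. Alternatives were other filters, scales, tests and thresholds, a replicate block and leaving out each array.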

Additional observations from a re-analysis of the deposited data

Results flagged for a closer look

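For Cyp4d21, the effect of corpora allata knockout in sterile females minus that in fertile females was -4.06 on the log2 scale (SE 0.33, adjusted p = 4.34e-04), a value past the threshold. All 3 CAKO_ovoD arrays lay below all 3 ovoD arrays, while the fertile arrays of both genotypes lay within 0.26 of the floor of 2.13, where no fall could be measured, so a difference in effect between sterile and fertile females does not follow. Leaving out single arrays gave -4.36 to -3.84.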

How the results depend on the processing

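Over 585 values of the 5 probe sets under alternative processing, 561 kept their direction and side of the threshold, 23 changed side and 1 changed direction. The fertile knockout difference of the dimmer dsx probe set is the one that turned (0.32 without wildtype replicate 3). The cause of the changes was not tested.

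With the methods' t-test after adjustment, CAKO against wildtype had 265 calls (726 in the main analysis) and lost sxe2 (0.91, adjusted p = 0.0649) and the brighter dsx probe set (-1.02, adjusted p = 0.0738), and CAKO_ovoD against ovoD had 163 calls (531) and lost fit (-1.63, adjusted p = 0.124) and sxe2 (1.33, adjusted p = 0.0675). The methods' test without adjustment called the dimmer dsx probe set in the sterile pair (-1.40), as did the fit of that pair alone (-1.40, adjusted p = 0.0379), in which fit was not called (-1.63, adjusted p = 0.0605). Array weights gave -1.55 for fit (adjusted p = 0.0542). The methods' test and the fit of a single pair give no value for the difference between the pairs.

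A 2-fold threshold left 333 calls in CAKO against wildtype, without sxe2 (0.91), 202 in CAKO_ovoD against ovoD and 216 for the difference between the pairs (421). With no fold threshold these counts were 1798, 1496 and 722.

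Centring on the median moved all values by 0.37 in ovoD against wildtype and 0.36 in CAKO_ovoD against CAKO, giving 4215 higher and 2435 lower calls (3042 and 3291 in the main analysis) and 4318 higher and 2260 lower (3058 and 3060). It called the dimmer dsx probe set in the sterile pair (-1.43, adjusted p = 0.0417). Centring on muscle and photoreceptor genes moved values by -0.14 in CAKO against wildtype (347 higher and 518 lower calls, against 453 and 273) and by -0.25 in CAKO_ovoD against ovoD (1124 calls, 151 higher and 973 lower, against 266 and 265), where dsx was then called (-0.69 and -1.66). It gave 10848 calls in ovoD against wildtype (1375 higher, main 6333) and 10648 in CAKO_ovoD against CAKO (870 higher, main 6118), where the dimmer dsx probe set was lost (0.40).

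Leaving out single arrays gave 621 to 728 calls in CAKO against wildtype, 443 to 531 in CAKO_ovoD against ovoD, 284 to 404 for the difference between the pairs, 6215 to 6330 in ovoD against wildtype and 5973 to 6109 in CAKO_ovoD against CAKO. The dimmer dsx probe set spanned -0.66 to 0.32 in CAKO against wildtype, -1.55 to -1.21 in CAKO_ovoD against ovoD, -1.72 to -0.74 for their difference (called without wildtype replicate 3, adjusted p = 0.0248) and 1.15 to 1.38 in CAKO_ovoD against CAKO. The brighter one spanned 0.44 to 0.74 for the difference (called without wildtype replicate 1, adjusted p = 0.025).

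The replicate numbers do not pair the arrays, since deviations of same-numbered arrays correlated at -0.16 to 0.15 and 5 of 12 arrays correlated best with their own number. With the replicate block the dimmer dsx probe set was lost in CAKO_ovoD against CAKO (1.27, adjusted p = 0.0548), and no other call of the 5 probe sets changed.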
